A study of Mus musculus with 6 samples.

Results

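The genes described here are 9 antiviral genes that type I interferon switches on: Ifit1, Ifit2, Ifit3, Usp18, Isg15, Oasl2, Ifi27, Ifi44 and Rsad2. They were taken by name as classic interferon effectors. A probe set was used where the platform annotation gave it 1 of these symbols and no other. That left 7 of the 9 genes, with 10 of the 45037 probe sets tested and 7 of the 18193 genes that have such a probe set. Isg15 had 1 probe set, which is annotated together with Gm9706, and Ifi44 was not matched, so neither has a value of its own here.

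The study asks what loss of Pofut1, the enzyme that adds O-fucose to Notch receptors, does to progenitor cells of the adult brain. Brain RNA of C57/Bl6 mice at 2 months of age was measured on 6 one-colour arrays, 2 per group. Brains of the NestinCre control group had Nestin cre with wild type Pofut1. Flox control brains were Pofut1flox/flox, and knockout brains carried Nestin cre and Pofut1flox/flox together. Nestin cre acts in neural progenitors and in the neurons and glia made from them. Which cells of these brains lost Pofut1 was not measured. The labels do not say whether each array is a separate animal. By the sex genes given below, the arrays of NestinCre control differ in sex, as do those of knockout. Neither pair therefore repeats the same animal. Both Flox control arrays were female, so their spread may be technical only, and the spread behind each p-value may be so in part.

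Type I interferons bind a receptor made of Ifnar1 and Ifnar2. The kinases Jak1 and Tyk2 then activate a complex that holds Stat2 and Irf9, which binds a short DNA element, the interferon-stimulated response element (ISRE), before the responding genes. The products act directly on viral RNA, on translation and on viral assembly, and one of them, Usp18, turns the receptor's signal down. In healthy brain most of these genes are kept at low levels, and microglia, astrocytes, neurons and vascular cells can all raise them.

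The promoter stretches with an ISRE core are shown because they are the feature through which these genes are known to respond together. RefSeq windows of build GRCm38.p6 were available for 7 of the 9 genes (Ifit1, Ifit2, Ifit3, Isg15, Oasl2, Ifi44 and Rsad2, 8 windows). Each ran from 250 bases before a start to 50 bases after it. For Ifit2, Ifit3 and Oasl2 the RefSeq gene begins further upstream than the start used for the window. The core searched was GAAA, then 2 bases of any kind, then GAAA again, on both strands and with overlaps counted. It was present in windows of 4 of these 7 genes: Ifit1, Ifit3, Isg15 and Rsad2. Of all 32851 windows, 3.44% held it, and 0.225% held it more than once, as Ifit1, Ifit3 and Isg15 did. For Ifit1, Ifit3 and Rsad2 the core is in capitals below, on the strand of the gene, where it reads TTTC, 2 bases, TTTC. The Isg15 stretch, with 3 overlapping cores that read GAAA, 2 bases, GAAA on its gene's strand, is not printed. The Ifit1 stretch is chr19:34640760-34640838 on the plus strand, with cores at 104 to 95 and 85 to 76 bases before the start. The Ifit3 stretches are chr19:34583363-34583392 and chr19:34583397-34583426 on the plus strand, and the Rsad2 stretch is chr12:26456538-26456597 on the minus strand.
Ifit1: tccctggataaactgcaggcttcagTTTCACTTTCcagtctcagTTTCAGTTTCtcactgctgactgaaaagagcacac
Ifit3, far core: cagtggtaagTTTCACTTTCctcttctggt
Ifit3, near core: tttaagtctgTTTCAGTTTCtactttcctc
Rsad2: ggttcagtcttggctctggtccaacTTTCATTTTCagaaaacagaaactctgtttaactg
The 2 cores of Ifit1 have the same letters as the 2 of Ifit3, which lies near it on chromosome 19. The windows of Ifit2, Oasl2 and Ifi44 did not hold these letters. For Ifit2 and Oasl2 this leaves the stretch before the RefSeq gene start unsearched.

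Levels below are log2 intensities, except for sums over genes and values called linear. On the log2 scale the medians of the arrays lay between 7.32 and 7.36. Replicate arrays correlated at 0.993 to 0.995, and arrays of different groups at 0.985 to 0.995. Pofut1 stood at 9.25 and 9.44 in knockout and at 9.77 to 9.95 in the 4 control arrays, a log2 difference of -0.50 (SE 0.08, limma adjusted p = 0.211). Whether its probes lie inside the deleted part is not known here, so this is no full check of the labels. Xist and Eif2s3y marked 2 arrays as male, NestinCre control replicate 2 and knockout replicate 1, and the other 4 as female. The brain label was borne out by the neuronal genes Snap25 and Syt1, which were brighter than 99.8% and 98.2% of probe sets.

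Most of these antiviral genes read higher in knockout brain than in both controls, and none passed the test over all probe sets. For 6 of the 7 genes, all but Ifit2, both knockout arrays lay above all 4 control arrays. That was so for 7.23% of all genes, each taken at its brightest probe set. The log2 difference between knockout and the average of the control means was above 0 for all 7, from 0.13 to 1.05, with a median of 0.73 against -0.02 over all genes. At an unadjusted p under 0.05, 6 of the 7 were higher, against 4.16% of all genes. None passed limma's adjustment over all 45037 probe sets, where 0.0155% of probe sets and 0.0275% of genes did, and their adjusted p ran from 0.0890 to 0.604. With a variance trend on brightness 2 of the 7 passed, with trend and robust fitting 4, with probe sets above the array median on at least 2 arrays 2 and with 1 probe set per gene 2, Usp18 in each of these fits. Each of these fits also passed more probe sets in all than the main fit. With trend and robust fitting the total was 202, against 7 of 45037 in the main fit. With sex as a covariate the median was 0.74, and 6 of the 7 had an unadjusted p under 0.05. On the 4 female arrays alone, with 1 knockout and 1 NestinCre control array, the median was 0.68, a value with no replicate check of its own. A stricter filter, a mean above the median of all probe sets, leaves Usp18 out, and then 0 passed.

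**Figure D1:**
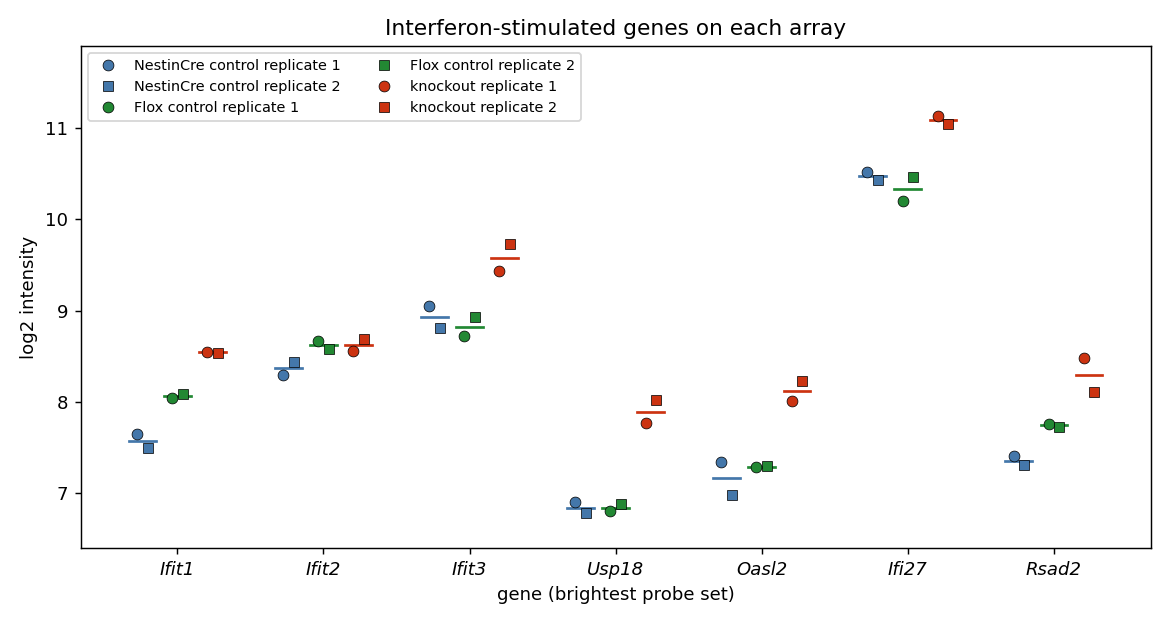
Log2 intensity (vertical axis) of the brightest probe set of each of the 7 genes (horizontal axis) on the 6 arrays. Each point is 1 array, circles are replicate 1, squares are replicate 2, and the short line is the mean of the group's 2 arrays. For every gene except Ifit2 both knockout arrays lie above the 4 control arrays, and for Ifit1 and Rsad2 the Flox control arrays also lie above the NestinCre control arrays.

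Usp18 encodes the protease that takes the ubiquitin-like protein ISG15 off its targets and also blocks the interferon receptor. Its log2 level was 6.90 and 6.79 in NestinCre control, 6.80 and 6.88 in Flox control and 7.77 and 8.02 in knockout. The 4 control arrays lay within 0.12 of each other, and the lower knockout array stood 0.87 above the highest of them. Knockout was 2.07-fold the controls, with a log2 difference of 1.05 (SE 0.09, limma adjusted p = 0.0890). It had the largest difference of the 7 genes, while the means of NestinCre and Flox control were 0.0026 apart (SE 0.10). Its mean level was just below the median of all probe sets, 7.34.

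Ifit1, Ifit2 and Ifit3 encode tetratricopeptide repeat proteins, of which Ifit1 binds viral RNA with an incomplete cap and Ifit2 and Ifit3 are its partners. Ifit1 stood at 7.66 and 7.49 in NestinCre control, 8.04 and 8.09 in Flox control and 8.55 and 8.54 in knockout. The 3 groups did not overlap: NestinCre control was lowest, Flox control between and knockout highest. Knockout exceeded the control average by 0.73 (SE 0.06, limma adjusted p = 0.0890), or 1.65-fold. Against NestinCre control alone the log2 difference was 0.97 (SE 0.07), against Flox control alone 0.48 (SE 0.07), and the controls themselves differed by -0.49 (SE 0.07, limma adjusted p = 0.376).

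Ifit3 levels were 9.05 and 8.81 in NestinCre control, 8.73 and 8.93 in Flox control and 9.43 and 9.73 in knockout. Here the controls overlapped and knockout was above them, by 0.70 (SE 0.13, limma adjusted p = 0.224) or 1.63-fold.

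Ifit2, the direct neighbour of Ifit3 among coding genes, did not follow them. Its levels were 8.30 and 8.44 in NestinCre control, 8.67 and 8.58 in Flox control and 8.56 and 8.69 in knockout. The knockout arrays overlapped the Flox control arrays and lay above the NestinCre control arrays. The log2 difference was 0.13 (SE 0.07) against both controls, with a limma adjusted p of 0.604, and 0.26 (SE 0.09) against NestinCre control alone. Against Flox control alone it was 0.0048 (SE 0.09), and it turned below 0 when arrays were centred on their medians or when Flox control replicate 2 or knockout replicate 2 was left out.

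Rsad2 encodes viperin, an enzyme that makes a nucleotide on which viral polymerases stop. Its brightest probe set read 7.41 and 7.31 in NestinCre control, 7.76 and 7.73 in Flox control and 8.48 and 8.11 in knockout. As for Ifit1, the groups did not overlap and Flox control lay between the others, but the knockout arrays were 0.37 apart. Knockout was 1.67-fold the controls (log2 difference 0.74, SE 0.11, limma adjusted p = 0.191). Without knockout replicate 1 the difference was 0.56, and without replicate 2 it was 0.93. A dimmer Rsad2 probe set had knockout at 6.81 and 6.85 and the controls at 6.10 to 6.35, a log2 difference of 0.57 (SE 0.07). The dimmest, brighter than only 20.7% of probe sets, went the other way by -0.05 (SE 0.05), with all 6 arrays between 5.79 and 5.91.

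Oasl2 belongs to the oligoadenylate synthetase family of double-stranded RNA sensors and carries ubiquitin-like domains. It stood at 7.35 and 6.98 in NestinCre control, 7.29 and 7.30 in Flox control and 8.01 and 8.23 in knockout. The NestinCre control arrays bracketed the Flox control arrays, and both knockout arrays were above all 4. The log2 difference was 0.89 (SE 0.13, limma adjusted p = 0.178), or 1.85-fold.

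Ifi27 encodes a small hydrophobic interferon-induced protein of organelle membranes. Its brighter probe set read 10.52 and 10.43 in NestinCre control, 10.20 and 10.47 in Flox control and 11.13 and 11.04 in knockout. The controls overlapped, and knockout was 1.60-fold higher (log2 difference 0.68, SE 0.09, limma adjusted p = 0.176). The other Ifi27 probe set had the controls at 9.05 to 9.44 and knockout at 9.84 and 9.87, a log2 difference of 0.64 (SE 0.12). Over all 10 probe sets, 9 were higher in knockout, as were 47.5% of all probe sets, and in 8 both knockout arrays were above all controls, against 8.77%.

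The antiviral genes did not share one pattern among the controls. Ifit1, Ifit2 and Rsad2 were lower in NestinCre than in Flox control without overlap, by -0.49, -0.25 (SE 0.09) and -0.39 (SE 0.13). That was 3 of 7 genes, against 30.4% of all genes. The same 3 were lower at an unadjusted p under 0.05, against 7.07%, and none passed limma's adjustment (adjusted p 0.376 to 0.446), as was so for 0% of genes. Ifit3, Usp18 and Ifi27 lay slightly above 0 in the same comparison, at 0.11, 0.0026 and 0.14. The sign for Usp18 turned with repeated quantile normalization, with median centring and without NestinCre control replicate 1 or Flox control replicate 1, and that for Ifit3 turned without NestinCre control replicate 1. Oasl2 was at -0.13 (SE 0.14) and turned above 0 with sex as a covariate or without NestinCre control replicate 2. The median over the 7 was -0.13, and it was 0.02 with sex as a covariate and 0.05 without NestinCre control replicate 2.

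The comparisons of knockout with each control share the knockout arrays. Against NestinCre control, both knockout arrays were higher for all 7 genes, against 16% of all genes, with a median log2 difference of 0.94. All 7 had an unadjusted p under 0.05 there, against 3.23% of genes in that direction. Against Flox control it was 6 of 7, against 15.5% of all genes, and the median was 0.75. There 6 had an unadjusted p under 0.05, against 4.75%. No gene passed limma's adjustment in either, where the smallest adjusted p was 0.125 for Ifit1 and 0.108 for Usp18; over all genes 0% and 0.011% passed.

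**Figure D2:**
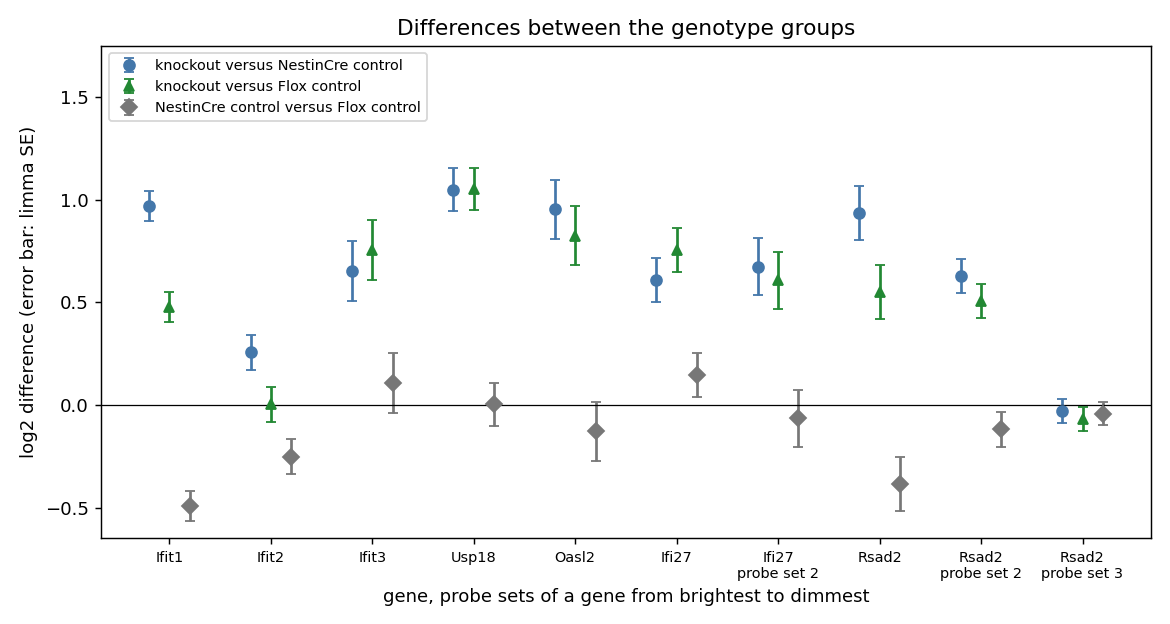
Log2 difference (vertical axis) between the genotype groups for each of the 10 probe sets (horizontal axis), with the limma SE as error bar. Circles are knockout versus NestinCre control, triangles knockout versus Flox control and diamonds NestinCre versus Flox control. For Usp18 the circle and triangle coincide near 1.05, while for Ifit1 they stand at 0.97 and 0.48.

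No interferon gene passed the test. Of 20 interferon genes listed, 10 were measured, and all were dimmer than the median probe set. Ifnb1, the first interferon made on infection, averaged 5.43, near the lowest value on any array, 5.25. Differences ran from -0.10 (Ifnz, SE 0.17) to 0.08 (Ifna11, SE 0.05). Of the 10, 1 was above 0, against 40.7% of all genes, and none had an unadjusted p under 0.05.

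Receptor and signalling genes had small differences. Of 9 measured, 6 were above 0, against 40.7% of all genes, and the median was 0.07. The largest differences were those of Irf9, the DNA-binding partner of Stat2 (0.29, SE 0.12), Jak2 (0.18, SE 0.07) and Stat2 (0.16, SE 0.09). Ifnar1 was at 0.08 (SE 0.11) and Ifnar2 at -0.14 (SE 0.12). Jak1, which acts on the receptor, was at 0.07 (SE 0.05). None had an unadjusted p under 0.05.

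Nucleic acid sensors had differences of either sign. Of 16 genes measured, 12 were above 0, against 40.7% of all genes. At an unadjusted p under 0.05, 3 were higher and 1 lower, against 4.16% and 6.45% of all genes. The 3 higher were the cytoplasmic RNA helicases Ddx58 (0.43, SE 0.15), Dhx58 (0.24, SE 0.07) and Ifih1 (0.15, SE 0.05). The 1 lower gene, a count near the share over all genes, was Mavs, the mitochondrial adaptor to which Ddx58 and Ifih1 signal. It was at -0.55 (SE 0.09, limma adjusted p = 0.218), with both knockout arrays below all controls, as for 1992 of 18193 genes. The controls also differed for Mavs, by -0.27 (SE 0.11), with both NestinCre control arrays below both Flox control arrays. Of the 4 genes that attach ISG15, 3 were above 0, against 40.7% of all genes. They were Trim25 (0.38, SE 0.13), Herc6 (0.28, SE 0.15) and the activating enzyme Uba7 (0.22, SE 0.12). The conjugating enzyme Ube2l6 was at -0.09 (SE 0.08). Only Trim25 was higher at an unadjusted p under 0.05, against 4.16% of all genes. Only Trim25 had both knockout arrays above all controls, against 7.23%.

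Other antiviral effectors were mostly higher in knockout too. Of 32 measured, 28 were above 0, against 40.7% of all genes, and the median was 0.27. At an unadjusted p under 0.05, 17 were higher and 0 lower, against 4.16% and 6.45% of all genes, and in 19 both knockout arrays were above all controls, against 7.23%. The smallest p belonged to Ifi27l2a, a relative of Ifi27 (1.13, SE 0.13), the antiviral regulator Trim30a (0.998, SE 0.13), the helicase Ddx60 (0.43, SE 0.06) and Parp9, an ADP-ribosyltransferase family member (0.43, SE 0.07). None passed over all probe sets, with limma adjusted p of 0.146 and above. Of 8 negative regulators of the pathway, 3 were above 0, against 40.7% of all genes, and the median was -0.03. Ptpn2 (0.25, SE 0.11), Cish (-0.11, SE 0.05), Adar (-0.14, SE 0.09) and Socs3 (0.35, SE 0.22) had the smallest p, none under 0.05.

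**Figure D3:**
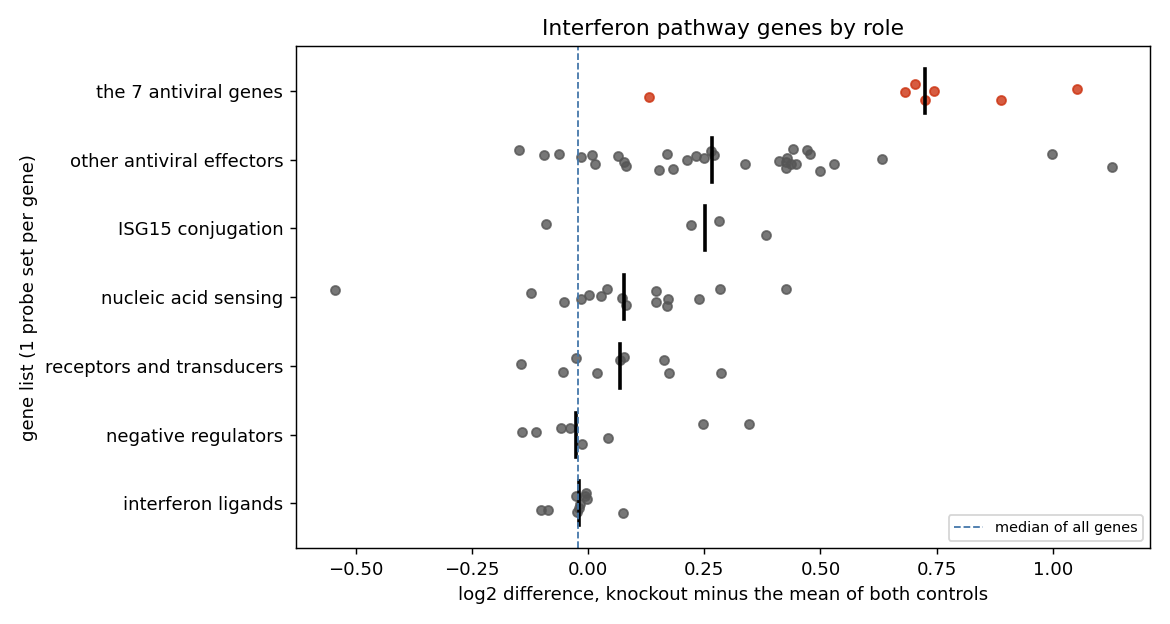
Log2 difference between knockout and the mean of both controls (horizontal axis) for interferon pathway genes grouped by role (vertical axis), 1 point per gene at its brightest probe set. The black bar is the list's median and the dashed line the median of all genes. The 7 antiviral genes have a median of 0.73 with Ifit2 apart at 0.13, other effectors 0.27, and ligands -0.02.

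In bulk tissue, more RNA per cell and more cells of a responding type cannot be told apart. Of 11 microglia and macrophage markers measured, all were above 0, against 40.7% of all genes, with a median of 0.10. At an unadjusted p under 0.05, 3 were higher, against 4.16% of all genes. The summed intensity of these markers was 9192 and 9559 in knockout against 8127 to 9099 in the controls. Aif1 (0.70, SE 0.06) and Tyrobp (0.48, SE 0.07) led, while Tmem119 (0.10, SE 0.11) and P2ry12 (0.10, SE 0.12), which define resting microglia, had an unadjusted p above 0.05. Astrocyte markers summed to 27490 and 27689 in knockout and 26401 to 26949 in the controls. Of the 6, 2 were above 0, near the 40.7% of all genes, and their median was -0.06. At an unadjusted p under 0.05, 2 were higher, among them Gfap (0.86, SE 0.07), and 2 were lower, Slc1a2 (-0.23, SE 0.05) and Slc1a3 (-0.19, SE 0.06). Over all genes, 4.16% were higher and 6.45% lower. Pericyte and smooth muscle markers summed to 2197 and 2479 against 4981 to 5484. Of these 8, 6 were lower at an unadjusted p under 0.05, against 6.45% of all genes. Rgs5 (-2.16, SE 0.08, limma adjusted p = 0.0263) and Higd1b (-0.96, SE 0.05) came first. The part of these cell types in the antiviral difference was not tested.

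Of 10 lymphocyte and natural killer genes, 9 were dimmer than the median probe set, and they summed to 704 and 710 in knockout and 689 to 788 in the controls. The brightest was Cd4, at a mean of 7.70, and it was the 1 gene with an unadjusted p under 0.05, lower in knockout (-0.29, SE 0.07). Over all genes, 6.45% were lower at that p. That Cd4 value averages -0.06 (SE 0.08) against NestinCre control and -0.51 (SE 0.08) against Flox control, and the controls were -0.45 apart (SE 0.08). Nkg7, of cytotoxic cells, was at 0.14 (SE 0.06), and the T cell receptor genes Cd3d and Cd3g, given for their role, averaged 5.70 and 5.72. Neutrophil and monocyte markers, 5 measured, summed to 339 to 369 on 5 arrays and to 1386 on NestinCre control replicate 2. There S100a8 was at a linear intensity of 573 and S100a9 at 622, against 72.1 to 126 elsewhere. Of the 5 markers, 1 was above 0, against 40.7% of all genes, and 1 was higher at an unadjusted p under 0.05, against 4.16%. The gene in both counts was Ccr2, a monocyte receptor with a mean log2 level of 5.60, brighter than only 14% of probe sets. Ccr2 was higher in knockout by 0.23 (SE 0.09, limma adjusted p = 0.439). Both knockout arrays lay above all controls for Ccr2, as for 7.23% of all genes. Without NestinCre control replicate 2 the median log2 difference of the 7 antiviral genes was 0.69. Endothelial markers overlapped between groups (3374 and 3423 in knockout, 3025 to 3524 in the controls), as did those of neurons. Choroid plexus markers summed to 12337 and 12629 in knockout and to 12829 to 13802 in the controls. Of these 5, 3 were lower at an unadjusted p under 0.05, against 6.45% of all genes, first Kcne2 (-0.47, SE 0.11) and Kl (-0.40, SE 0.09). The part of these cells in the antiviral difference was not tested either.

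**Figure D4:**
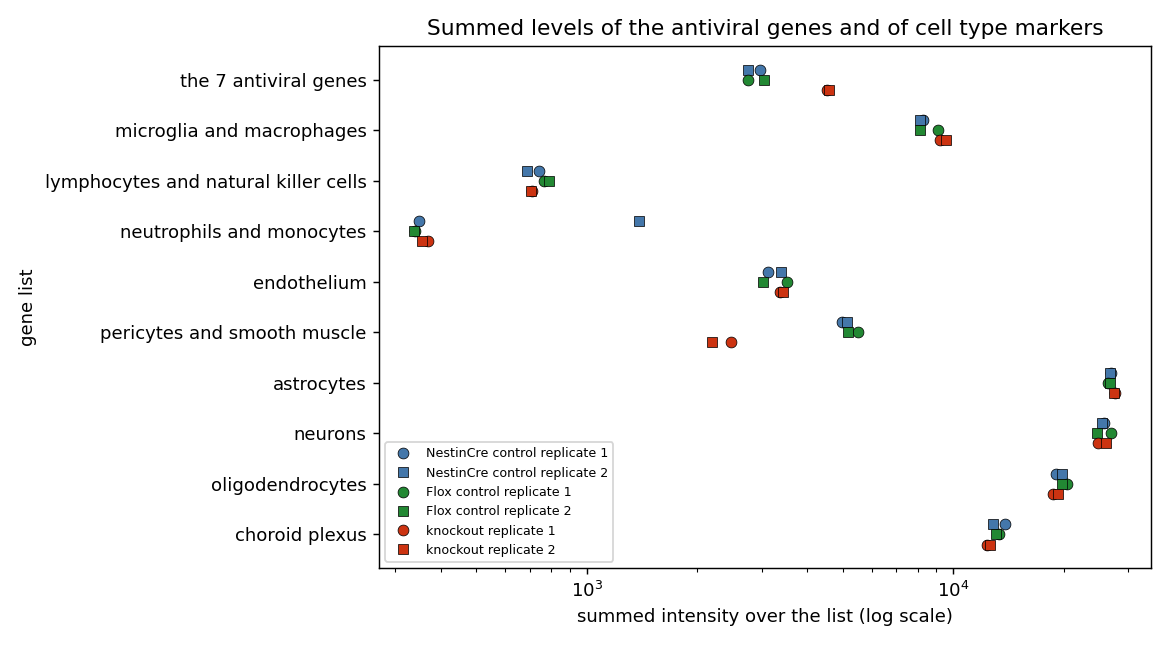
Summed intensity on a log scale (horizontal axis) of the 7 antiviral genes and of each cell type's markers (vertical axis), 1 point per array with circles for replicate 1 and squares for replicate 2. The antiviral genes sum to 4524 and 4580 in knockout and 2754 to 3045 in the controls, and NestinCre control replicate 2 stands apart for neutrophil and monocyte markers.

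The genes whose pattern over the 6 arrays was most like the mean of the 7 antiviral genes were sought among 11469 other genes brighter than the median. Pearson's r served as a measure of likeness only. It was 0.986 to 0.991 for the first 8, which were Gfap, Aif1, Ifi27l2a, Rchy1, 1110064A23Rik, Cd300c2, Slc11a1 and Inpp5d. All were higher in knockout, by 0.10 (Rchy1, SE 0.04) to 1.13 (Ifi27l2a, SE 0.13), and none passed limma's adjustment. The 6 points fall into knockout and control levels rather than an even spread.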

How the data were processed

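The deposited table holds intensities on a linear scale, 1 value per probe set and array. The authors made these intensities with GCOS and RMA, per the submitters' processing notes, which give no version, role or order. RMA removes background, gives arrays a common distribution and summarises probes, which compresses differences of dim probe sets. Values were taken to log2, and 64 control probe sets were left out of 45101. Of the rest, 34945 had 1 symbol, 932 several and 9160 none listed, and 34741 matched RefSeq (GRCm38.p6) by Entrez identifier. The precision is limited by the number of arrays.

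A mean per group was fitted over all 6 arrays with limma 3.58.1 (lmFit and eBayes without trend, R 4.3.3), with 3 residual degrees of freedom and 4.94 with the prior. The p-values were adjusted by Benjamini-Hochberg across the 45037 probe sets and called under 0.05. Each SE belongs to limma's log2 difference. Each gene is represented by its brightest probe set. Every antiviral gene is named, with up to 4 genes per pathway list and 2 per marker list by smallest p; Ifnb1, Ifnar1, Ifnar2, the genes given beside them as part of a route, and further markers were added for their role. On simulated data of the comparison with both controls, with 45037 probe sets, the fit recovered 23.6% of changes of 0.5, 82.4% of 1 and 100% of 2 on the log2 scale, for probe sets above the median brightness. The simulated noise was normal, with limma's SD of each probe set, and changes of several sizes were planted together. How many changes are present alters the adjustment. The real arrays may differ in both, so these shares need not hold for them. The genes and lists were chosen with earlier results of these data known. The alternatives were another normalization, centring, 2 filters, a trend, robust fitting, an added 16, the compared groups alone, a replicate block, 1 probe set per gene, sex, female arrays alone and each array left out.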

Additional observations from a re-analysis of the deposited data

Results flagged for a closer look

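The probe set annotated to Isg15 and Gm9706 together was outside the comparisons above, since it names more than 1 gene. It stood at 7.46 and 7.39 on the log2 scale in knockout and at 6.89 to 7.23 in the 4 control arrays, so that both knockout arrays lay above all controls. The log2 difference was 0.29 (SE 0.10, limma adjusted p = 0.387). Which of the 2 genes its signal comes from cannot be told apart.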

How the results depend on the processing

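With both controls, the differences of the 7 genes were above 0 in 118 of 118 values over the alternatives run. These values are not separate checks. The filters, trend, robust fitting, 1 probe set per gene and the replicate block cannot alter a gene's difference. The other alternatives reuse the same arrays. Of the 118, 10 passed limma's adjusted threshold (lowest adjusted p 0.0130). The median of the genes stayed at 0.68 to 0.77. Genes of the 7 past the threshold, 0 in every comparison as reported, numbered 2 with probe sets above the array median on at least 2 arrays, 2 with an intensity trend, 4 with trend and robust fitting and 2 with 1 probe set per gene. Against Flox control they numbered 1, 2 and 2 in the first 3 of these, and against NestinCre control 1 with the array filter and 2 with robust fitting. The causes were not tested. Over all probe sets, 7 passed with both controls, but 22 after median centring, 34 with a mean above the median, 54 with the array filter, 135 with trend, 202 with trend and robust fitting, 34 with 1 per gene, 0 with sex, 0 with female arrays alone and 0 to 1 with an array left out. Against Flox control 2 passed, but 0 after quantile normalization, 9, 23, 73, 162, 325 and 20 in the same order from centring to 1 per gene, 0 with 16 added, 0 with the compared arrays alone, 0 with sex and 0 with an array left out. Against NestinCre control 0 passed, but 9, 11, 28, 39, 72 and 10 in that order, 1 with the compared arrays alone and 0 to 1 with an array left out. Between the controls 0 passed, but 1 with the array filter, 1 with trend, 6 with robust fitting and 0 to 2 with an array left out. At an unadjusted p under 0.05, 1983 to 6070 probe sets were counted with both controls over the alternatives. A replicate block left 0 probe sets with both controls and 0 against Flox control. Replicate numbers did not pair samples (correlations of deviations 0.19, -0.31 and -0.24), and a crossed replicate block, chosen after seeing the data, also gave 0 and 0.

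The median of the 7 against Flox control, 0.75, was 0.65 with a mean above the median and 0.62 to 0.83 with an array left out. Against NestinCre control, 0.94, it was 0.79 and 0.77 to 0.99. Between the controls, -0.13, it was 0.017 with sex and -0.18 to 0.054 with an array left out. Some signs turned. Ifit2 against Flox control was -0.019 after centring and -0.061 to 0.071 with an array left out (-0.04 without Flox control replicate 2). Between the controls, Oasl2 was 0.017 with sex and -0.31 to 0.054 with an array left out, highest without NestinCre control replicate 2, and Ifit3 was -0.013 to 0.22, lowest without NestinCre control replicate 1. Usp18 there was -0.018 after quantile normalization, -0.020 after centring and -0.056 to 0.061 with an array left out, lowest without NestinCre control replicate 1 and -0.04 without Flox control replicate 1. A group left with 1 array is assumed to vary like the others. Signal over background is least for dim probe sets.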

Other observations

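Some antiviral genes sit beside relatives or co-regulated genes on the chromosome, and the neighbours by RefSeq order (GRCm38.p6, coding genes) did not all share the difference. These neighbours were chosen after their values were seen. Ifi27l2a, next to Ifi27, was higher in knockout by 1.13 (SE 0.13). Cmpk2, next to Rsad2 and known as a nucleotide kinase induced with it, was at -0.15 (SE 0.13), with a mean level of 9.02 on the log2 scale. That value averages 0.16 (SE 0.15) against NestinCre control and -0.46 (SE 0.15) against Flox control, and the controls were -0.61 apart (SE 0.15, limma adjusted p = 0.382). Oasl1, next to Oasl2, was at 0.08 (SE 0.05) with a mean of 5.57, and Ifi44l, next to Ifi44, was at -0.01 (SE 0.04) with a mean of 5.36. Both of these lay near the lowest values on the arrays.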
